A study of Mus musculus with 9 samples.

Results

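Sprouty, Spred and dual-specificity phosphatase (Dusp) genes encode brakes on MAP kinase signalling. The 10 genes described here are Spry1, Spry2, Spry4, Spred1, Spred2, Dusp1, Dusp4, Dusp5, Dusp6 and Dusp10. They were taken from the arrays by gene name, which gave 1 probe for each gene, and they are 10 of 28365 genes and unnamed features measured. All 10 probes were well above background on all 9 arrays, so no member was lost to a filter on dim signal. A receptor tyrosine kinase such as an FGF receptor switches on Ras, and Ras starts a chain of kinases that ends in ERK. Sprouty and Spred proteins act near the top of this chain, at the step from receptor to Ras and Raf, and MAP kinase phosphatases of the Dusp family remove the phosphates from ERK, JNK or p38 at its end. Many of these genes are themselves switched on by ERK and so close a feedback loop, and in muscle stem cells Spry1 is known for its part in the return to quiescence.

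Satellite cells, from which muscle fibres regenerate, were sorted by flow cytometry from the skeletal muscle of 2-month-old male FVB mice. The groups were wild type mice (WT) and mice labelled as knockout for Bmi1 (KO), a subunit of Polycomb repressive complex 1, and the labels do not say in which cells the gene is deleted. The sort took cells with integrin alpha-7 and CD34 and without CD31, CD45, CD11b and Sca1, and their RNA was amplified before labelling with Cy3. There were 3 WT and 6 KO arrays of 1 colour, and the titles call all 9 biological replicates. KO arrays that share a first number in their description agreed far better with each other (r from 0.994 to 0.996 over probes) than any other pair of arrays (0.962 to 0.979), so each of these pairs was averaged as 1 sample. This choice, which goes against the titles, bears on the calls: 21 probes passed limma with it and 1639 with 9 separate arrays. This left 3 samples in each group, where KO sample 1 joins replicates 1 and 4, KO sample 2 joins 2 and 5, and KO sample 3 joins 3 and 6. The labels do not tie samples to animals. The p-values therefore reflect the spread among these samples alone, and that spread may be technical.

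Between 71.9% and 75.8% of the spots were well above background and 0 were saturated, and the number of samples limits the precision. KO replicate 1 has wild type in its genotype field and KO in its title, and was kept as KO. The targeted transcript does not check the labels, because both Bmi1 probes differed by little (log2 difference 0.10 and 0.21, limma adjusted p = 0.864 and 0.699) and the labels do not name the deleted exons. Cdkn2a, a gene that Bmi1 is known to repress, was 9.72-fold higher in KO (limma adjusted p = 0.0207). Among markers of the sorted cells, Pax7 (difference 0.02), Itga7 (-0.01) and Cd34 (0.26) were well above background on all 9 arrays. Of the genes of the excluded surface proteins, Itgam (CD11b), read from the brightest of its probes, had a strong signal in WT (log2 7.02) and differed by -0.08. Ly6a (Sca1) and Pecam1 (CD31) were dim, above background on 2 of 3 WT and 6 of 6 KO arrays. Both had a higher mean in KO (differences 1.82 and 1.97, limma adjusted p = 0.62 and 0.52), with overlapping groups. Ptprc (CD45) had a dim signal in WT (log2 -3.51), was above background on all 9 arrays and differed by -0.02.

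The sequences upstream of the start site are shown for the 3 genes whose KO samples all lay above the WT samples, because their known control by transcription factors that answer to growth factor signals bears on what these genes do. They are 250 bases of the RefSeq promoters, in GRCm38.p6 and on the strand of the gene, ending at the base before the start. Capitals mark matches to the motifs searched, CRE (TGACGTCA, bound by CREB), ETS (CCGGAAGT), AP-1 (TGANTCA) and the CArG box, to which serum response factor binds. Both strands were searched, and no match overlapped another. The positions are chr19:53528895-53529144 (+) for Dusp5, chr17:26508473-26508722 (-) for Dusp1 and chr10:99262981-99263230 (+) for Dusp6.
Dusp5: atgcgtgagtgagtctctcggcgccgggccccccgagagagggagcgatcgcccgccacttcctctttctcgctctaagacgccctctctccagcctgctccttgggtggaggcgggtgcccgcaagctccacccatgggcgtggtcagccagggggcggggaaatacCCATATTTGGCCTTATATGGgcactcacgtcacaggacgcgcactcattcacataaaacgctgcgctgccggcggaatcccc
Dusp1: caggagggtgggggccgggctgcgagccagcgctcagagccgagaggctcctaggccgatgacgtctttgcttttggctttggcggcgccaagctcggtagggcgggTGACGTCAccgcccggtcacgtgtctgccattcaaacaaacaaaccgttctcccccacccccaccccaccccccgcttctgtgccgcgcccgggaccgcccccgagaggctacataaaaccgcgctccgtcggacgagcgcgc
Dusp6: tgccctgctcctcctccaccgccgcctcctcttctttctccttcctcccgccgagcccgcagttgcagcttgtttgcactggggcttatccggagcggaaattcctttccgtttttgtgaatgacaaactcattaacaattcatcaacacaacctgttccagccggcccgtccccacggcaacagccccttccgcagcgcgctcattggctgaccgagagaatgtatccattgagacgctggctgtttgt
The Dusp5 sequence holds 2 CArG boxes side by side, from -82 to -73 and from -72 to -63, and a CArG box was found in 1.47% of 32851 promoters. The Dusp1 sequence holds 1 CRE, from -143 to -136, a motif found in 1.55% of promoters. The promoters of 8 members were searched, and those of Spry4 and Dusp4 were not. The ETS motif (2.88% of promoters) and the AP-1 motif (6.75%) were found in none of the 8, and Dusp6 had no match to any of these 4 motifs. These 8 windows held 12 to 31 CpG dinucleotides, as compared to a median of 6 over all promoters, and the GC box (GGGCGG, not in capitals above), found in 32.7% of promoters, was in 6 of the 8. A match is a description of the letters and not of binding.

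No member passed the test of KO against WT. With limma and Benjamini-Hochberg adjustment over 42983 probes, 0 of 10 were called, where 0.0489% of all probes were (0.0465% higher and 0.00233% lower in KO). At an unadjusted p under 0.05 there were 3 of 10 members, Dusp5, Dusp1 and Dusp6, all higher in KO, as compared to 10.7% of all probes (6.49% higher and 4.18% lower). The same 3 had every KO sample above every WT sample, as had 8.58% of all probes, and no member had every KO sample below, as compared to 7.94%. In all, 8 members had a higher mean in KO and 2 a lower, where 13397 of all 28365 genes had a higher mean. The median difference of the members was 0.20 on the log2 scale, beside -0.02 over all genes. Values below are the log2 of the processed signal minus the 75th percentile of the array. Levels of different probes are not compared, except in the sums of cell type markers, where bright probes weigh most.

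**Figure D1:**
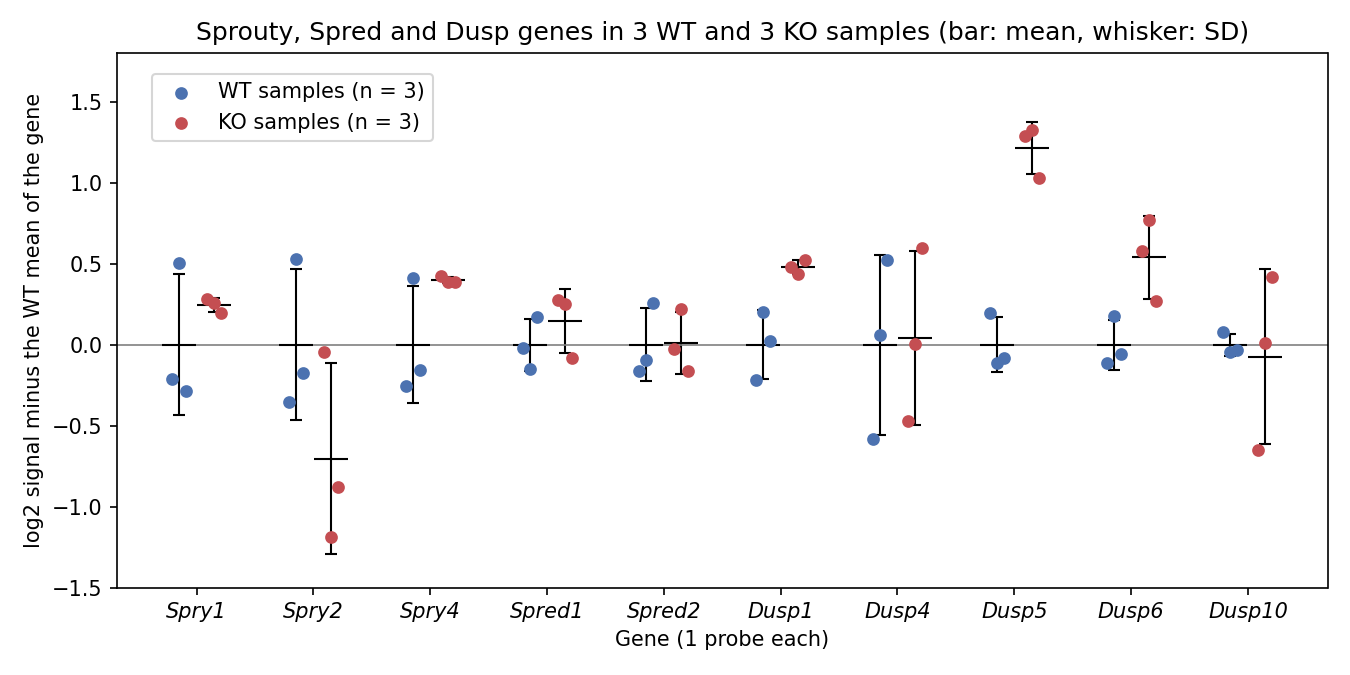
Each gene's normalised log2 signal minus its WT mean (vertical axis) is shown for 3 WT samples (blue) and 3 KO samples (red), with the mean (bar) and SD (whisker). The KO samples of Dusp1, Dusp5 and Dusp6 lie above all WT samples, and those of Spry2 and Dusp10 are widely spread.

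Among the phosphatases, Dusp5, which acts on ERK in the nucleus, had the largest difference of the 10 genes. Its probe lies on chromosome 19 (53615682 to 53615741, mm9, as are all probe positions here). The WT samples gave -3.23, -3.54 and -3.51 and the KO samples -2.14, -2.10 and -2.40. The gap from the highest WT sample to the lowest KO sample was wider than the range within either group. In background-subtracted signal, the probe read 92.4 to 125.9 on the WT arrays and 221.4 to 334.7 on the KO arrays. WT averaged -3.43 ± 0.17 and KO -2.21 ± 0.16 (SD over 3 samples). The difference was 1.21 ± 0.16 (SE), or 2.32-fold, with a 95% interval from 0.83 to 1.60. This ranked 116 of 42983 by p but did not pass (limma adjusted p = 0.0882).

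The size and the call of Dusp5 depended on how the arrays were treated. Its signal was dim, and a normexp background correction with an offset of 50, which by construction draws dim values together, gave 0.86 and passed (limma adjusted p = 0.0388). The authors' deposited table of values gave 0.83 and also passed in limma (adjusted p = 0.0494). Dusp5 passed as well in the 3 fits that keep the 9 arrays separate (1.21 to 1.23, limma adjusted p from 0.00206 to 0.0264), which count arrays rather than samples in the degrees of freedom, so that p may be too small. Without 1 sample at a time the difference was 1.16 to 1.31 and did not pass (limma adjusted p from 0.155 to 0.255). Over all 21 alternatives the difference lay between 0.83 and 1.31 and the limma adjusted p, where tested, between 0.00206 and 0.255.

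Dusp6, the cytoplasmic phosphatase specific for ERK and a common readout of FGF signalling, had the second largest difference among the phosphatases (chromosome 10, 98729985 to 98730044). Its WT samples were at 1.69, 1.98 and 1.75 and its KO samples at 2.38, 2.58 and 2.07. All 3 KO samples were above all 3 WT samples, but KO sample 3 was close to WT sample 2. The difference was 0.54 ± 0.18 (SE, limma adjusted p = 0.367), or 1.45-fold, with a 95% interval from 0.10 to 0.97. Among the alternatives that can move the difference it lay between 0.37 and 0.67, and Dusp6 was called in 0 of all 21.

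Dusp1, an immediate early phosphatase that acts on p38 and JNK as well as ERK, was tight in KO (chromosome 17, listed at 26642526 to 26642536). Its WT samples gave 3.63, 4.05 and 3.88 and its KO samples 4.33, 4.29 and 4.37. The KO samples lay close together, above the highest WT sample. Each KO sample is a mean over both slides, which a WT sample is not, so these spreads are not of the same kind. The difference was 0.48 ± 0.15 (SE, limma adjusted p = 0.338), or 1.39-fold, with a 95% interval from 0.11 to 0.84. Of the alternatives, the fit of all 9 arrays as separate samples called it (limma adjusted p = 0.0458), and the others gave an adjusted p up to 0.593.

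The remaining phosphatases did not separate the groups. Dusp4, a nuclear phosphatase of ERK, JNK and p38 (chromosome 8, 35882045 to 35882104), was at -2.68, -2.04 and -1.57 in WT and -2.57, -2.09 and -1.501 in KO. Each group thus spanned more than 1 log2 unit, and the ranges nearly coincide. The difference was 0.04 ± 0.38 (SE, limma adjusted p = 0.984), and its interval, -0.89 to 0.97, leaves room for a change in either direction. Dusp10, which prefers p38 and JNK over ERK (chromosome 1, 185898608 to 185898667), was at 0.43, 0.31 and 0.32 in WT and -0.30, 0.36 and 0.77 in KO. The WT samples were close together, while KO sample 1 lay below and KO sample 3 above all of them. The mean difference was -0.07 ± 0.28 (SE, limma adjusted p = 0.961), with an interval from -0.76 to 0.61 and a KO SD of 0.54 as compared to 0.07 in WT, a difference in spread that was not tested.

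**Figure D2:**
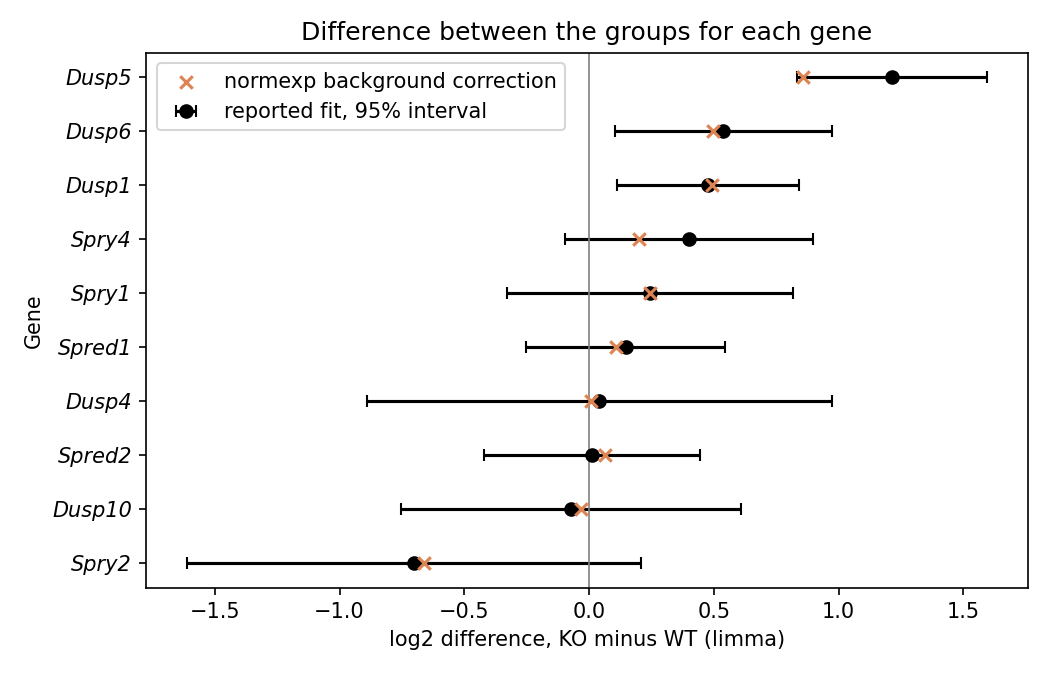
The log2 difference of KO minus WT (horizontal axis) is given for each gene with its 95% interval from limma (black), and after a normexp background correction (orange cross). The intervals of Dusp5, Dusp6 and Dusp1 lie above 0, and the Dusp5 point moves from 1.21 to 0.86 with the correction.

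Among the Sprouty genes, Spry2 had a lower mean in KO (chromosome 14, 106291845 to 106291904). Sprouty 2 binds adaptor proteins of the receptor, such as Grb2, and the ubiquitin ligase Cbl. Its WT samples were at 0.08, 0.96 and 0.25 and its KO samples at 0.39, -0.76 and -0.45. KO samples 2 and 3 were below every WT sample, while KO sample 1 was above 2 of the 3. The difference was -0.70 ± 0.37 (SE, limma adjusted p = 0.589), with an interval from -1.61 to 0.21. Among the alternatives that can move it, it ranged from -1.27 to -0.40, and it was -1.03 without KO sample 1, -0.46 without KO sample 2 and -0.44 without WT sample 2.

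Spry1, the Sprouty gene tied to satellite cell quiescence, had a strong signal on every array (6913.3 to 15537.7 in background-subtracted units; chromosome 3, 37543403 to 37543462). The WT samples were at 2.79, 3.51 and 2.72 and the KO samples at 3.29, 3.26 and 3.20. WT sample 2 was the highest of the 6 samples, and the KO samples lay between it and the other WT samples. The difference was 0.24 ± 0.23 (SE, limma adjusted p = 0.793), with an interval from -0.33 to 0.82. It was 0.50 without WT sample 2, 0.14 without WT sample 1 and 0.10 without WT sample 3. Spry4, an inhibitor of the same kind (chromosome 18, 38745923 to 38745982), was dim, at -4.26, -3.59 and -4.17 in WT and -3.58, -3.62 and -3.62 in KO. WT sample 2 was again level with KO and the other WT samples were lower. The difference was 0.40 ± 0.20 (SE, limma adjusted p = 0.569), with an interval from -0.10 to 0.90, and was 0.61 without WT sample 2.

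Spry1 and Spry4 followed the slide on which an array lay. Slide 1 held 2 WT and 3 KO arrays and slide 2 held WT replicate 2 and 3 KO arrays, and each KO sample had an array on each slide. On slide 2 the Spry1 signal was 3.51 in WT and 3.50, 3.47 and 3.45 in KO samples 1, 2 and 3, while on slide 1 the same KO samples were at 3.07, 3.06 and 2.95 and WT was at 2.79 and 2.72. Every array of slide 2 was thus above every array of slide 1, in both groups. Within the KO samples slide 2 exceeded slide 1 by 0.44, 0.41 and 0.50 for Spry1 (mean 0.45), and 4.11% of all probes had a mean slide difference of at least this size. For Spry4 it did so by 0.44, 0.70 and 0.97 (mean 0.70, reached by 1.02% of probes), where the median size over probes was 0.10.

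The KO samples, each a mean over both slides, had an SD of 0.04 for Spry1 and 0.02 for Spry4, smaller than the gap between their own arrays. The WT group holds 1 array of slide 2 among 3, so the slide also enters the difference between the groups. Within slide 1 Spry1 differed by 0.27, within slide 2 by -0.03 and with slide as a block by 0.12. For Spry4 these values were 0.26, 0.34 and 0.30. Slide 2 has 1 WT array, so its values have no test, and in the block fit the slide term comes from the WT samples, since each KO sample spans both slides.

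**Figure D3:**
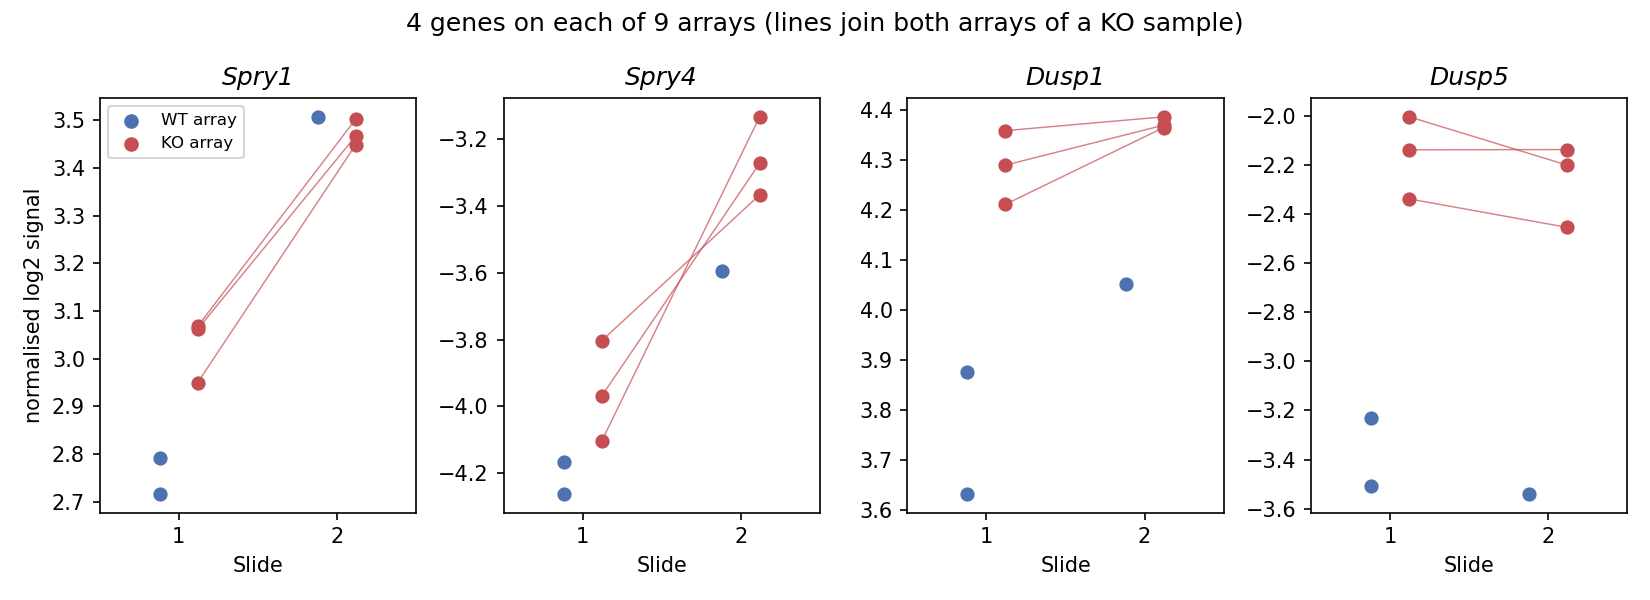
Normalised log2 signal (vertical axis, scaled per gene) of Spry1, Spry4, Dusp1 and Dusp5 is plotted by slide for 3 WT arrays (blue) and 6 KO arrays (red), with a line joining both arrays of each KO sample. Spry1 and Spry4 are higher on slide 2 in every KO sample, whereas the KO arrays of Dusp1 and Dusp5 lie above the WT arrays of both slides.

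The KO arrays of the phosphatases with separate groups differed less between slides. Mean slide differences within KO samples were -0.10 for Dusp5, 0.09 for Dusp1 and 0.01 for Dusp6, sizes that 48.5%, 56.1% and 94.1% of all probes reached. The WT array of slide 2 differed from the mean of the other WT arrays by -0.17 for Dusp5, 0.30 for Dusp1 and 0.26 for Dusp6, and for Dusp1 and Dusp6 this had the sign of the difference in all 3 KO samples. Dusp5 differed between KO and WT by 1.21 on slide 1, by 1.28 on slide 2 and by 1.24 once slide was a block. Dusp1 differed by 0.53, 0.32 and 0.43 and Dusp6 by 0.62, 0.37 and 0.49 in the same order. None of these passed in limma where a test was possible (adjusted p from 0.174 to 0.507). Spry2 differed by -0.40, -1.27 and -0.84, and for this gene WT replicate 2 was 0.79 above the mean of the other WT arrays while both arrays of a KO sample differed by 0.15 at most.

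Spred proteins bind Ras and Raf and bring neurofibromin, a protein that switches Ras off. Spred1 (chromosome 2, 117004952 to 117005011) was at -1.06, -1.19 and -0.87 in WT and -0.77, -0.79 and -1.12 in KO. KO samples 1 and 2 were above WT and KO sample 3 was within the WT range. Its difference was 0.15 ± 0.16 (SE, limma adjusted p = 0.829), with an interval from -0.25 to 0.55. Leaving out 1 sample moved it between 0.07 (without WT sample 2) and 0.26 (without KO sample 3). Spred2 (chromosome 11, 19922416 to 19922475) was at -0.61, -0.54 and -0.19 in WT and -0.47, -0.23 and -0.60 in KO. The KO samples lay inside the WT range, with a difference of 0.01 ± 0.18 (SE, limma adjusted p = 0.992) and an interval from -0.42 to 0.44. Within slides 1 and 2 and with slide as a block, Spred1 differed by 0.04, 0.33 and 0.18 and Spred2 by 0.03, 0.03 and 0.03. The same 3 values were 0.08, -0.02 and 0.03 for Dusp4 and -0.09, -0.04 and -0.06 for Dusp10.

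Other genes of the pathway were read from lists, 1 probe a gene, and 0 of the genes in these lists were called by limma, where 0.0494% of all genes were. Shares to set beside their counts are 10.4% of all genes at an unadjusted p under 0.05, 8.62% with every KO sample above every WT sample and 8.09% with every KO sample below. Of all 28365 genes, 13397 had a higher mean in KO. Other feedback inhibitors had 9 of 14 measured genes with a higher mean in KO (median 0.18), 4 of them at an unadjusted p under 0.05 and with KO apart from and above WT. These were Sulf2, a sulfatase that trims the heparan sulfate on which FGF signals (1.44), Il17rd, the membrane inhibitor of FGF signalling also called Sef (0.76), the Ras GTPase activator Rasa3 (0.55) and Errfi1. Their limma adjusted p lay between 0.153 and 0.409. Among other dual-specificity phosphatases 8 of 14 had a higher mean (median 0.12).

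By the smallest p in that list, Dusp18 was higher in KO by 0.97 (limma adjusted p = 0.108) and Dusp16, a JNK phosphatase, by 0.48 (adjusted p = 0.403), while Dusp14 was lower (-0.48, adjusted p = 0.42). Dusp26 did not clear background on the WT arrays and did on all KO arrays, where it was at least 3.42-fold higher (limma adjusted p = 0.226). It met the filter on dim probes through the KO arrays alone, so neither its p nor its place in the count of higher means is support. For this bound each WT array was given the lowest signal that counted as well above background, or the reading of the probe where that was higher. Its KO samples were at -2.53, -4.58 and -5.32, which is a wide spread for 1 group.

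**Figure D4:**
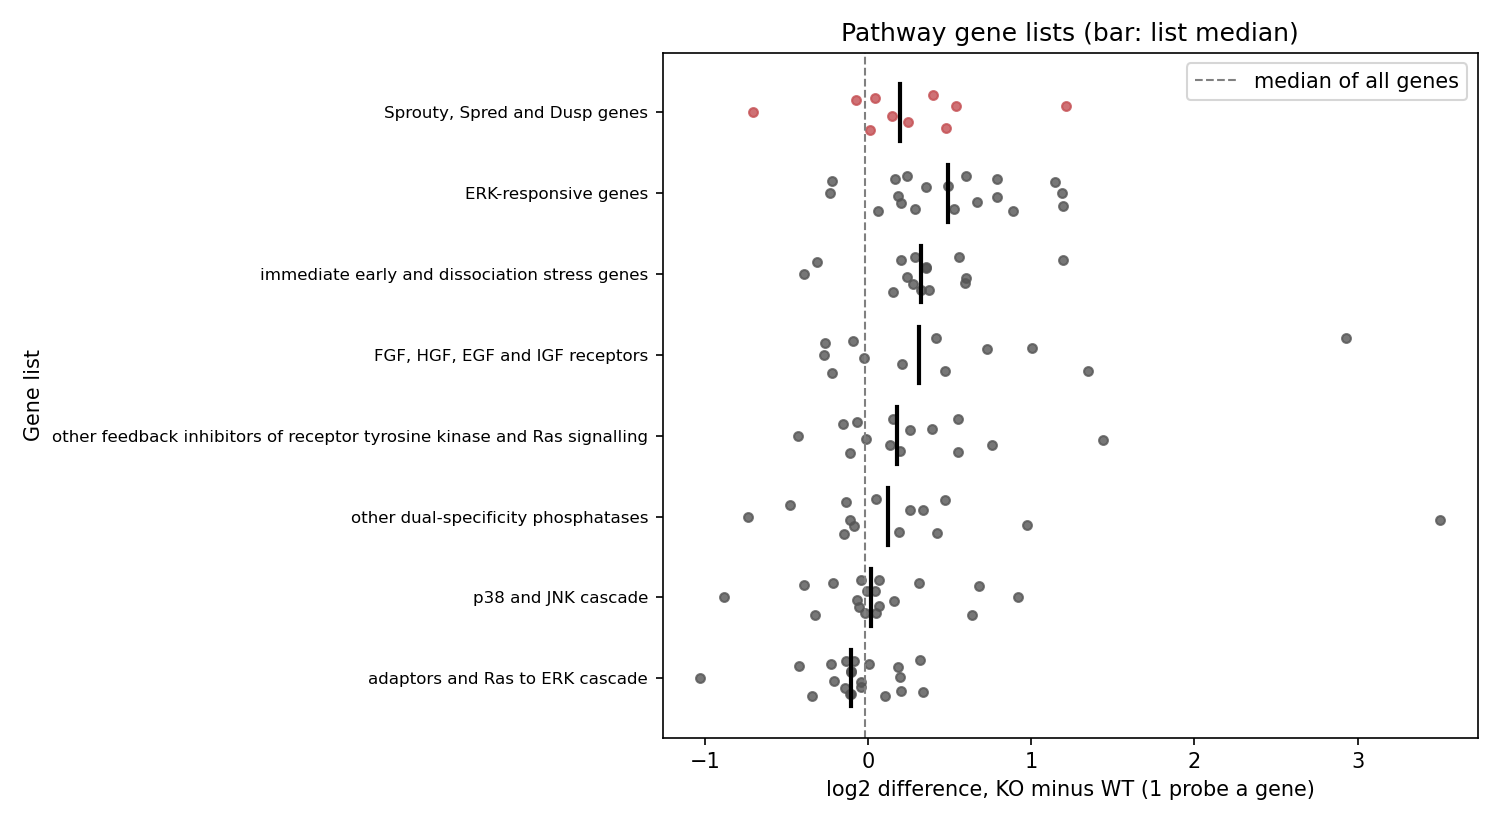
Each point is the log2 difference of KO minus WT (horizontal axis) of a gene, by gene list, with the list median as a black bar and the median of all genes as a dashed line. The 10 brakes (red) have a median of 0.20, the ERK-responsive genes 0.49 and the Ras to ERK cascade -0.10.

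Upstream, the receptors that feed this pathway had 7 of 12 genes with a higher mean in KO (median 0.31). Pdgfrb, a platelet-derived growth factor receptor, differed by 1.35 (limma adjusted p = 0.0567) and Igf1r by 0.47 (adjusted p = 0.429). Pdgfra was not well above background in WT, and by the same kind of bound KO was at least 3.49-fold higher (limma adjusted p = 0.123, with the same limit from the filter). Both platelet-derived growth factor receptors are also markers of mural and mesenchymal cells. The FGF receptors Fgfr1, Fgfr2, Fgfr3 and Fgfr4 differed by -0.09, 1.01, -0.02 and -0.26 (limma adjusted p from 0.47 to 0.979). Every KO sample of Fgfr4 was below WT, and the groups of the other FGF receptors overlapped. Adaptors and the Ras to ERK cascade had 7 of 21 genes with a higher mean and 14 with a lower (median -0.10). The ERK-activated kinase Rps6ka1 (-1.03, limma adjusted p = 0.427) was the sole gene there at an unadjusted p under 0.05.

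In the p38 and JNK cascade 9 of 18 genes had a higher mean and 9 a lower (median 0.02). Mapkapk3, a kinase activated by p38, was higher by 0.64 and Mapk12, a p38 isoform, by 0.68, and the p38 activator Map2k6 was lower (-0.88), as was the JNK activator Map2k7 (-0.32). None passed (limma adjusted p from 0.24 to 0.461).

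Downstream, ERK-responsive genes had 17 of 19 with a higher mean in KO (median 0.49), 7 at an unadjusted p under 0.05 and 9 with every KO sample above every WT sample. The 17 include Plaur, above background on 1 of 3 WT and 3 of 6 KO arrays. It met the filter on dim probes only with the help of KO arrays, so its higher mean is no support. Etv1, an ETS factor induced by FGF, differed by 0.89, the immediate early gene Ier3 by 1.19 and the zinc finger factor Egr2 by 0.79 (limma adjusted p = 0.153, 0.187 and 0.202). Immediate early and dissociation stress genes had 13 of 15 with a higher mean (median 0.33) and 8 with KO apart from and above WT. The remaining 2 were the heat shock genes Dnajb1 (-0.39) and Hspa1a (-0.31), whose groups overlapped. Both lists hold Ier3, Fosb, Fos, Egr1 and Ier2, so their counts are not independent. In the stress list, the smallest p after that of Ier3 was that of Btg2, which slows the cell cycle (difference 0.60, limma adjusted p = 0.27). The cytokine inhibitor Socs3 followed (difference 0.60, limma adjusted p = 0.332). Fos (0.29) and Egr1 (0.20) differed less. Dusp1 is often counted among these dissociation genes, and how long the cells of each sample took to sort is not stated in the labels.

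Markers of other cell types were summed as well, and limma called 0 genes in each marker list, where 0.0494% of all genes were called. The summed signal of 8 mesenchymal markers, relative to the 75th percentile of the array, was 94.8 to 105.7 in WT and 118.7 to 127.5 in KO. For 8 mural markers it was 51.3 to 57.6 and 61.4 to 65.1, for 7 glial markers 21.9 to 28.7 and 32.4 to 34.99, and for 8 endothelial markers 3.99 to 5.14 and 5.16 to 7.96. KO was above WT for each of these, by a narrow margin for the endothelial markers. A higher mean was seen for 8 of 8 mesenchymal, 8 of 8 mural, 6 of 7 glial and 8 of 8 endothelial genes. The endothelial marker Tie1 was above background on 1 of 3 WT and 4 of 6 KO arrays. Tie1, Pecam1 and Ly6a met the filter on dim probes only with the help of KO arrays, so their higher means are no support. Most of the mesenchymal sum came from Col3a1 (0.03) and most of the mural sum from Notch3 (0.10) and Acta2 (0.20), whose groups overlapped. In the WT samples most of the endothelial sum came from Tek (0.17), whose groups overlapped too. Every KO sample was above WT for 4 of 8 mesenchymal, 3 of 8 mural, 4 of 7 glial and 1 of 8 endothelial genes, as for 8.62% of all genes. In each of these 4 lists, 0 genes had every KO sample below WT. In contrast, the summed satellite cell markers (12 genes) overlapped (130.4 to 148.7 in WT, 141.5 to 144.6 in KO). Of these genes, 8 had a higher mean in KO and 4 a lower. Sdc4 (0.75) and Cdh15 (0.20) had every KO sample above WT, and Cxcr4 (-0.22) had every KO sample below. The sums of the 7 myeloid markers (123.4 to 143.4 and 120.4 to 133.6) and of the 7 myofibre markers (5.79 to 10.5 and 6.47 to 19.3) overlapped too. Nearly all of the myeloid sum came from Itgam, and of the other myeloid markers Cd68 had every KO sample above WT (0.45) and Tyrobp every KO sample below (-1.26). The mesenchymal marker Pdgfra was not above background on any WT array. It met the filter on dim probes through the KO arrays alone, so neither its higher mean nor its place among the 4 mesenchymal genes above WT is support. The myeloid marker Lyz2 was not above background on any of the 9. Fewer cells of a type and less RNA per cell cannot be told apart in such bulk samples, and the part of these cells in the values of Dusp5, Dusp6 and Dusp1 was not tested.

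The genes whose profile over the 6 samples was most like that of Spry1, by the root mean square difference of values centred on their mean, were Anxa9 (0.08), Spic (0.08) and N4bp2l2 (0.08), of 15028 genes well above background on all arrays. In each of the 3, as in Spry1, WT sample 2 was the highest sample. With 6 samples and so many candidates this is a description of the profile only.

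**Figure D5:**
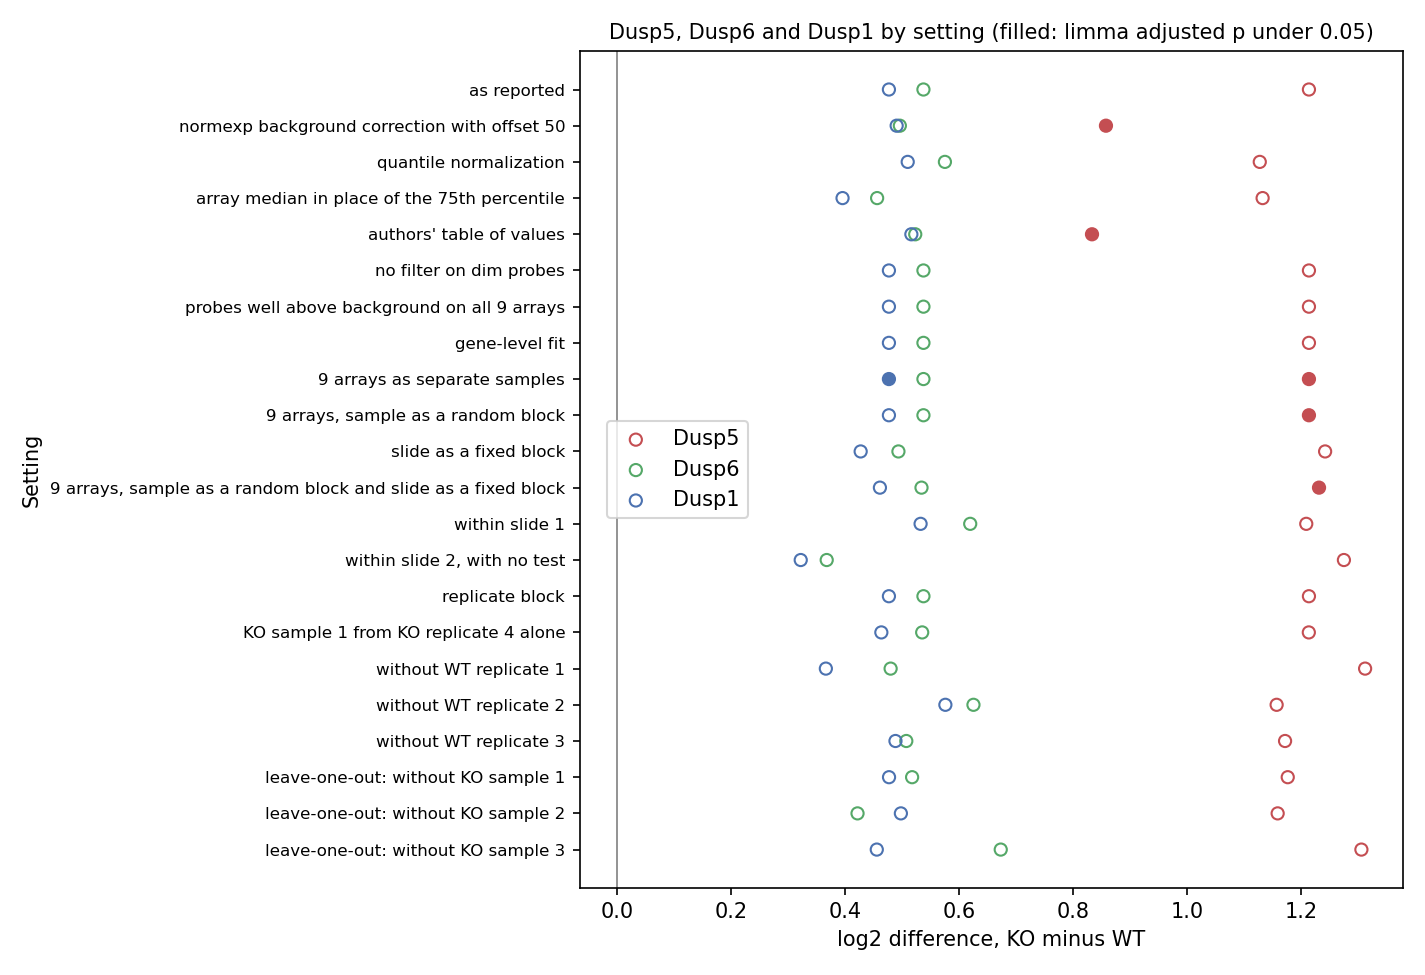
The log2 difference of KO minus WT (horizontal axis) of Dusp5, Dusp6 and Dusp1 is shown under each way of processing the arrays, with filled points where the limma adjusted p was under 0.05. All points lie above 0, settings that change only the filter or the error model share 1 value, and Dusp5 is filled in 5 settings, Dusp1 in 1 and Dusp6 in 0.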

How the data were processed

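The authors deposited scanner output for 9 arrays, in which each spot has a linear intensity. Agilent Feature Extraction, per the file headers, subtracted background and spatial trend and set dim values to a surrogate, with no scaling between arrays. The authors' deposited table per probe was read as log2 from the range of its values, and its columns share the same quantiles; the sources used here do not name its method. Here log2 of the processed signal was taken, each array's 75th percentile subtracted, outlier spots left out and repeat spots averaged. 35 empty values were filled with the probe's mean, none in the 10 genes. Probes well above background on at least 3 arrays were kept (42983 of 55681). For a gene of the lists the kept probe with the highest mean was used. KO and WT were compared with limma 3.58.1 in R 4.3.3 (lmFit, eBayes, Benjamini-Hochberg at 0.05, 4 residual and 1.99 prior degrees of freedom), tested on simulated data. Promoters were read with Python 3.11.15 and pandas 2.3.3, and plots were drawn with matplotlib 3.10.9. Named besides the 10 genes are, per list, called genes and up to 3 in each direction with the smallest unadjusted p under 0.05, and the 3 genes most like Spry1. Errfi1, Fos, Fosb, Ier2, Egr1, Dnajb1, Hspa1a, the FGF receptors and the myeloid markers were added after their values were seen. So were Sdc4, Cdh15, Cxcr4, Col3a1, Notch3, Acta2, Tek, Tie1 and Plaur. Names follow RefSeq (GRCm38). The genes and lists were chosen with earlier results of these data known. Alternatives were another background correction, scaling, filter, treatment of replicate arrays and of slides, and leaving out samples.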

Additional observations from a re-analysis of the deposited data

How the results depend on the processing

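Counts of called probes moved most. The limma count over all probes, 21, was 282 with normexp, 208 with the authors' table, 62 with probes above background on all arrays, 40 in a fit of 1 probe a gene, 1639 with 9 separate arrays, 610 with sample as a random block, 364 with slide added to it and 1 with slide as a fixed block. It was 0 within slide 1 (4335 at an unadjusted p under 0.05) and 0 to 3 without 1 sample. Of the 10 genes, 0 as reported, Dusp5 passed (1) with normexp, the authors' table and both fits with the random block, and 2 with 9 separate arrays (Dusp5 and Dusp1). In the other lists the count was 2 with normexp (Pdgfrb, Dusp18), 1 (Pdgfrb) with quantile normalization, the authors' table, the stricter filter and 1 probe a gene, 13 with 9 separate arrays, 7 with the random block and 5 with slide added. The median of the 10 genes, 0.20, was 0.15 with normexp, 0.11 with the array median, 0.14 with the authors' table, 0.15 with slide as a block or with random block and slide, 0.14 with KO sample 1 from replicate 4 alone, and 0.14 to 0.28 without 1 sample. The array median lowers all genes together (median over genes -0.10, as compared to -0.02), the 10 included. Genes near 0 turned sign: Dusp4 was -0.0046 with quantile normalization, -0.0401 with the array median and -0.0142 with the authors' table, and -0.25 to 0.30 without 1 sample. Spred2 was -0.0712 with the array median and -0.0933 to 0.14 without 1 sample, and Dusp10 -0.32 to 0.21. The causes were not tested. WT and KO share replicate numbers, but same-numbered samples did not deviate together (r from -0.03 to 0.02), so they were not treated as pairs. Whether the numbers mark a shared origin cannot be told from this. With the replicate block 0 probes passed (4361 at an unadjusted p under 0.05), and Dusp5 kept its difference with a limma adjusted p of 0.246. Dusp5 and Spry4 were dim, and normexp moved them from 1.21 to 0.86 and from 0.40 to 0.20.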
